A study of Mus musculus with 12 samples.

Results

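The odorant receptor genes Olfr828 to Olfr986 are class II receptors that lie together on mouse chromosome 9, and 99 of them were described here among 39395 genes in all. Members were taken by symbol number, and 29 symbols that name a pseudogene were dropped. The annotation holds 111 such genes, of which 12 were not analysed here. All 99 lie on chromosome 9, in a cluster from 18.8 to 20.3 Mb with 28 members and a cluster from 37.7 to 40.2 Mb with 71 members (GRCm38, where a gap of over 1 Mb between receptor genes starts a new cluster). The annotation calls 98 of them protein-coding and 1, Olfr936, a polymorphic pseudogene.

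The study measured total RNA of the olfactory mucosa, the lining of the nose in which olfactory sensory neurons sit, in 6 deletion mice and 6 wild-type mice. All 12 were males at postnatal day 30 with the strain label 129S6;C57BL/6J, and each gave 1 library. The deletion animals lack 408217 bp of chromosome 7 (chr7:102509797-102918014), which the labels describe as removing a class I receptor enhancer, and the wild-type animals are age-matched controls. No member lies in the deleted interval, so the comparison asks about receptor genes on another chromosome that the deletion left in place. The labels do not say whether the deletion is homozygous, for which reads of the deleted interval are given below, or whether the animals are littermates.

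Odorant receptors are G-protein-coupled receptors on the cilia of olfactory sensory neurons, and each mature neuron expresses a single receptor gene from a single allele. Class I receptors form a single cluster on chromosome 7, whereas class II receptors lie in many clusters over the genome. Class II choice draws on enhancers, transcription factors such as Lhx2, Ldb1 and Ebf proteins, and the release of a chosen gene from heterochromatin. In a whole mucosa, the RNA of a receptor gene therefore depends on how many neurons chose it and on how much each of them makes. Fewer cells with a receptor and less RNA per cell cannot be told apart in these bulk samples.

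The members are close relatives, and the sequences of the 3 closest pairs are shown because reads from such genes can be shared. The coding sequences span 305 to 331 codons, with a median of 312. Across pairs of members the coding identity had a median of 67.9% within the cluster at lower coordinates, 67.1% within that at higher coordinates and 60.6% between the clusters. The closest of 1104 receptors lay on chromosome 9 for 95 of the 99 members, and 43 members had a relative of at least 90% identity. Olfr952 and Olfr955 share 98.1% of their aligned coding bases, Olfr870 and Olfr871 share 97.5%, and Olfr924 and Olfr926 share 96.1%. The longest stretch without a difference was 272, 117 and 114 bases in these pairs. For each pair, the 60 coding bases without a gap that hold the most differences are given 5′ to 3′ (GENCODE M21 transcripts, GRCm38). Bases that differ between the genes are in capitals, 4, 4 and 7 in the 3 pairs. These stretches are therefore less alike than the coding sequences as a whole. The stretches run from coding base 13 to 72 in the first pair, 373 to 432 in the second and 260 to 319 in the third.
Olfr952: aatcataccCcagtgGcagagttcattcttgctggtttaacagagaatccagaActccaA
Olfr955: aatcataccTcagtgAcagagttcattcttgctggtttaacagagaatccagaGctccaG
Olfr870: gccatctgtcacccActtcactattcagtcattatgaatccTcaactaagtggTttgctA
Olfr871: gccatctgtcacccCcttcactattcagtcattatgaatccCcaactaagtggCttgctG
Olfr924: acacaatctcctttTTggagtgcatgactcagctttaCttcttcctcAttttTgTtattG
Olfr926: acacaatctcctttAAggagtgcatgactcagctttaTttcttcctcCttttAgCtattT

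Windows around the annotated start (250 bases before to 50 after, RefSeq, GRCm38.p6) were found for 85 members, as 86 windows. In 57 of the 86 the base after the start opened an ATG, so those models begin at the start codon and the window need not hold the promoter. Another 11 windows lay within 50 bases of the 5′ end of the GENCODE model and did not open with ATG. The palindrome TAATTA, the core that homeodomain proteins such as Lhx2 and Emx2 bind, was in 4 of these 11 (36.4%) and in 20 of all 86 member windows (23.3%). It was in 18.2% of 858 windows of other receptors and in 5.29% of 32851 windows of all genes. The filter that gave the 11 was not applied to these other windows, so the 36.4% has no like share beside it. The palindromic Ebf site, TCCC and GGGA with any 2 bases between them, was in 0 of 86 member windows, 0.583% of other receptor windows and 0.904% of all windows. These matches describe the letters only. Both motifs read the same on the other strand and do not overlap each other. The windows of Olfr868 and Olfr871 are shown as an example with and an example without TAATTA, which is in capitals. Of the other windows, that of Olfr866, at 4.10 per kb, had a match, and that of Olfr910, at 39.4 per kb, had none. Olfr868 and Olfr871 lie on the plus strand, with windows at chr9:20098376-20098675 for Olfr868 and chr9:20211957-20212256 for Olfr871.
Olfr868: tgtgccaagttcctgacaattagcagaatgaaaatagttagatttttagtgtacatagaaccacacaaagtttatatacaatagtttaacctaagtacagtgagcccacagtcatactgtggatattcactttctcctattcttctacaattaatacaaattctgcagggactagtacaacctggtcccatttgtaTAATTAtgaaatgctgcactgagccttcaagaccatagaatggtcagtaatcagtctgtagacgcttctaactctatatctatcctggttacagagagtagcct
Olfr871: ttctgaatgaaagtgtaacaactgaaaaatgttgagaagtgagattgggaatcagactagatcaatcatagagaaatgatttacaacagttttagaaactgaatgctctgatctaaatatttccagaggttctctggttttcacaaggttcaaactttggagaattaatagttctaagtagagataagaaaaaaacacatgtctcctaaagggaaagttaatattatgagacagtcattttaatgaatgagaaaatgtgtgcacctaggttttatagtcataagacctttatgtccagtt

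Recovered reads ran from 10091239 to 18612011 in deletion libraries and from 13942401 to 18044908 in wild-type libraries. Members held 5639 to 11615 reads per deletion library and 5400 to 9928 per wild-type library. The 30 listed genes of the deleted interval held 3 reads in the 6 deletion libraries together, against 10880 in the 6 wild-type libraries. This checks the genotype labels, and the deletion animals held almost no RNA from an intact copy of the interval. Deletion libraries 2 and 3 stood apart, with a read in 80.6% and 94.6% of all listed genes. The share was 67.2% to 75.6% in the other deletion libraries, with libraries 4 and 5 at 73.1% and 75.6%, and 65.2% to 69.3% in wild-type libraries. The counts and sums over members are also given without these libraries.

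Levels are normalized counts (reads over a size factor that is specific to each library) per kb of exon, averaged over the 12 animals. The 99 members spread widely around a median of 17.9 per kb, with the middle of the members from 8.47 (lower quartile) to 29.6 (upper quartile) per kb. The other 1022 class II receptors, which unlike the members include symbols that name a pseudogene, had a median of 16.3 per kb. The 29 symbols dropped from the number range are among them. Of the members, 8 exceeded 50 per kb and 15 were under 5 per kb.

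Olfr969 (chr9:39790945-39796635) had the highest level, 256 per kb, and ranked first among the members in 12 of 12 animals. This was 14.3 times the median member and 2.59 times the next, Olfr835. Its normalized counts were 483, 310, 391, 447, 423 and 475 in deletion animals, against 437, 360, 367, 408, 372 and 432 in wild-type animals. The groups overlapped over most of their range. The fold change on the log2(normalized count + 1) scale, deletion over wild type, was 0.08 ± 0.10 (SE), with a 95% confidence interval from -0.13 to 0.28.

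The next 7 members lay between 50.4 and 98.7 per kb. In order they were Olfr835, Olfr868, Olfr972, Olfr884, Olfr959, Olfr874 and Olfr957. Neighbours in this order were close: Olfr868 and Olfr972 had 89.6 and 88.7 per kb, and Olfr959 and Olfr874 had 53.8 and 53.1. The highest 10 members by normalized count held 35.2% ± 0.982 of member reads in deletion libraries and 35.5% ± 0.778 in wild-type libraries (SD, n = 6 each). The order of the 99 members was much alike between animals, with Spearman's rho of 0.908 to 0.978 over the 15 pairs of deletion animals, 0.948 to 0.977 over the 15 pairs of wild-type animals and 0.908 to 0.976 over the 36 pairs across genotypes. These correlations are across genes, which are not independent replicates, and are a description.

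**Figure D1:**
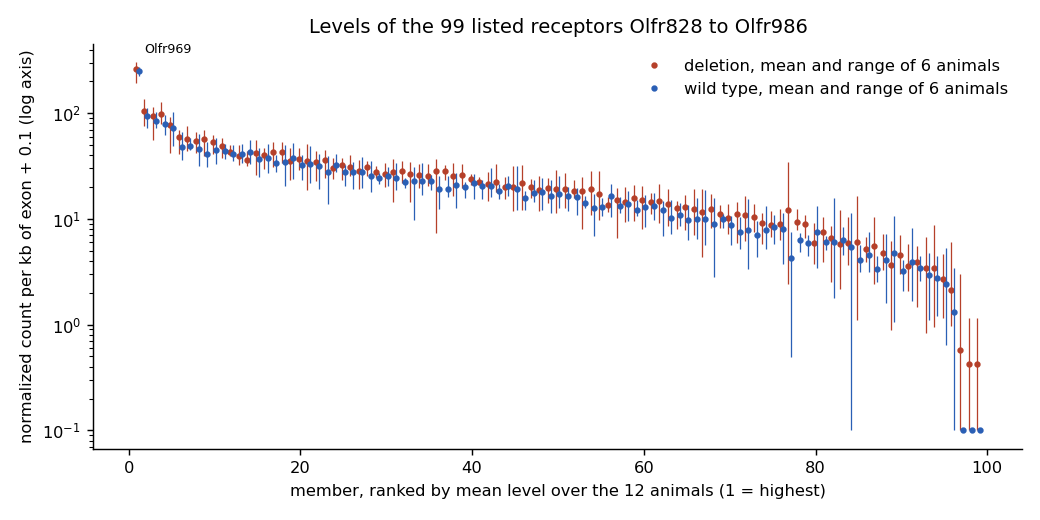
Level of each of the 99 members, in normalized count per kb of exon plus 0.1 on a log axis, against its rank by mean over the 12 animals. Points are group means and lines span the 6 animals of a group, with deletion left of wild type; Olfr969 stands at 256 per kb, above a median of 17.9.

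At the low end, Olfr891, Olfr926 and Olfr952 had 0 reads in all wild-type libraries and 6 reads together in deletion libraries, of which 4 were in libraries 2 and 3. There were 6 members whose model is the coding sequence alone (Olfr850, Olfr854, Olfr883, Olfr885, Olfr891 and Olfr936), with a median of 4.38 per kb, against 18.4 per kb for the other 93. Of these 6, Olfr854 alone had enough reads to be tested. The part that missing untranslated exons play in their low counts was not tested.

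A filter on low counts left 87 members for testing among 17320 genes. It left out Olfr844, Olfr850, Olfr853, Olfr862, Olfr866, Olfr883, Olfr885, Olfr891, Olfr926, Olfr936, Olfr952 and Olfr975. The highest mean normalized count left out was 10.5 and the lowest kept was 12.2. The 12 untested members held 39 to 79 reads per deletion library and 34 to 118 per wild-type library.

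No member passed the test between deletion and wild-type animals, yet most had a slightly higher mean in deletion animals. With limma and Benjamini-Hochberg adjustment over all 17320 genes, 0 of 87 were higher and 0 were lower at an adjusted p under 0.05, where 0.052% of all tested genes were higher and 0.445% were lower. The lowest adjusted p among members was 0.264, for Olfr875. At an unadjusted p under 0.05, 14 members (16.1%) were higher and 0 were lower, against 2.02% of all tested genes higher and 2.37% lower. edgeR's quasi-likelihood test gave 16 and DESeq2 gave 17 higher at an unadjusted p, both with 0 lower and 0 past the adjusted threshold. The limma count was 27 without deletion animal 2 and 24 without deletion animals 2 and 3. It was 6 to 9 when any single one of deletion animals 3 to 6 or wild-type animals 3 and 5 was left out. In the authors' deposited table, 0 members had an adjusted p under 0.05 and 11 had a p under 0.05, all 11 higher in deletion animals.

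Fold changes were positive for 79 of 87 tested members (90.8%), against 45.9% of all tested genes. Their median was 0.20 on the log2 scale, with quartiles at 0.11 and 0.33, and the median of all tested genes was -0.01. Without deletion libraries 2 and 3, 82 of 88 tested members were positive, with a median of 0.29. Other class II receptors, pseudogene symbols included, had much the same values. Of 772 tested, 671 (86.9%) had a positive fold change with a median of 0.18, and 88 (11.4%) were higher at an unadjusted p with 0 lower. At limma's adjusted p under 0.05, 1 of the 772 was higher and 0 were lower, against 0.052% of all tested genes higher. The difference between the members and other class II receptors was not tested.

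**Figure D2:**
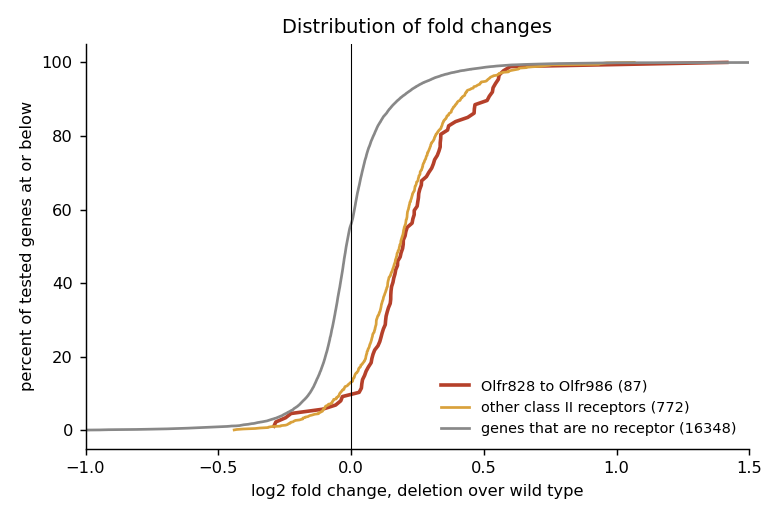
Cumulative percent of tested genes against log2 fold change, deletion over wild type, for 87 members, 772 other class II receptors and 16348 genes that are no receptor (values outside -1 to 1.5 not drawn). The member and class II curves lie close together, with medians of 0.20 and 0.18, to the right of the genes that are no receptor, whose median is -0.02.

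The size of the shift depended on the scaling. When the values were scaled to the summed reads of all class II receptors, 53 of 87 members were positive with a median of 0.04. At an unadjusted p from limma, 3 were higher and 1 lower, and the median of all tested genes moved to -0.17. The members are in this sum and other class II receptors had much the same shift, so a median near 0 was largely set by the scale. When the values were scaled to markers of mature olfactory neurons, 81 members were positive with a median of 0.24 and 12 were higher. No member passed the adjusted threshold under either.

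Olfr875 (chr9:37771857-37774459) had the smallest p among members. Its normalized counts were 62.5, 47.1, 65.9, 48.9, 63.9 and 59.6 in deletion animals and 32.4, 40.1, 37.5, 40.7, 33.1 and 51.4 in wild-type animals. Of the wild-type animals, the highest alone reached into the deletion range. The means were 58.0 ± 8.02 in deletion and 39.2 ± 6.90 in wild-type animals (SD, n = 6 each), a log2 fold change of 0.56 ± 0.15 (SE; limma adjusted p = 0.264). Its closest relative among members is its neighbour Olfr874, with 95.6% coding identity, which had 150 ± 34.1 in deletion and 129 ± 15.1 in wild-type animals and a fold change of 0.19 ± 0.13.

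Olfr920 had 39.0, 37.0, 61.8, 59.8, 56.4 and 51.4 normalized counts in deletion animals, against 25.1, 38.4, 28.1, 30.3, 39.3 and 37.1 in wild-type animals. The lowest deletion animals overlapped the highest wild-type animals (0.60 ± 0.17; limma adjusted p = 0.434). Olfr986 (chr9:40180920-40190134) had 28.7, 32.5, 28.8, 27.0, 43.2 and 31.8 in deletion animals and 23.0, 23.7, 25.3, 19.8, 16.6 and 21.9 in wild-type animals. It was the single tested member whose groups did not overlap, against 0.133% of all tested genes for which the lowest deletion animal exceeded the highest wild-type animal, and its limma adjusted p was 0.690 (0.53 ± 0.17). For no member did the highest deletion animal stay under the lowest wild-type animal, against 0.497% of all tested genes.

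The remaining members named for a small p overlapped between the groups. Olfr923 had 201, 116, 157, 195, 164 and 168 in deletion animals and 152, 118, 118, 89.6, 93.2 and 157 in wild-type animals, where deletion animals 2 and 3 lay inside the wild-type range. Olfr851, with a high level of 38.5 per kb, had 303, 220, 272, 319, 345 and 384 in deletion animals and 268, 262, 286, 197, 203 and 236 in wild-type animals. Olfr877 had 72.8, 75.2, 92.0, 96.9, 60.1 and 74.3 in deletion animals and 67.0, 60.5, 53.4, 64.0, 55.9 and 67.6 in wild-type animals. Their log2 fold changes were 0.47 ± 0.15, 0.34 ± 0.12 and 0.34 ± 0.13 (SE), and the limma adjusted p was 0.720 for Olfr923 and 0.955 for the others.

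Among the 8 negative fold changes, the 6 named for the smallest p were Olfr965, Olfr828, Olfr979, Olfr837, Olfr855 and Olfr924. Olfr965 had 58.4, 58.4, 63.2, 62.3, 79.8 and 74.3 normalized counts in deletion animals, against 103, 68.7, 67.5, 60.5, 79.7 and 98.1 in wild-type animals. The highest values were in wild-type animals 1 and 6 and the groups overlapped, with a log2 fold change of -0.25 ± 0.15 (SE; unadjusted p = 0.110 from limma). Olfr828, the first member by number, averaged 22.9 ± 2.95 in deletion animals and 27.6 ± 7.39 in wild-type animals (-0.23 ± 0.20). Olfr979 averaged 19.9 ± 7.32 in deletion and 25.4 ± 11.5 in wild-type animals (-0.29 ± 0.29). Olfr837 averaged 21.6 ± 13.2 in deletion and 23.5 ± 5.13 in wild-type animals (-0.28 ± 0.31). Olfr855 and Olfr924 had fold changes of -0.11 ± 0.16 and -0.04 ± 0.12. All 6 had a limma adjusted p of 0.955.

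**Figure D3:**
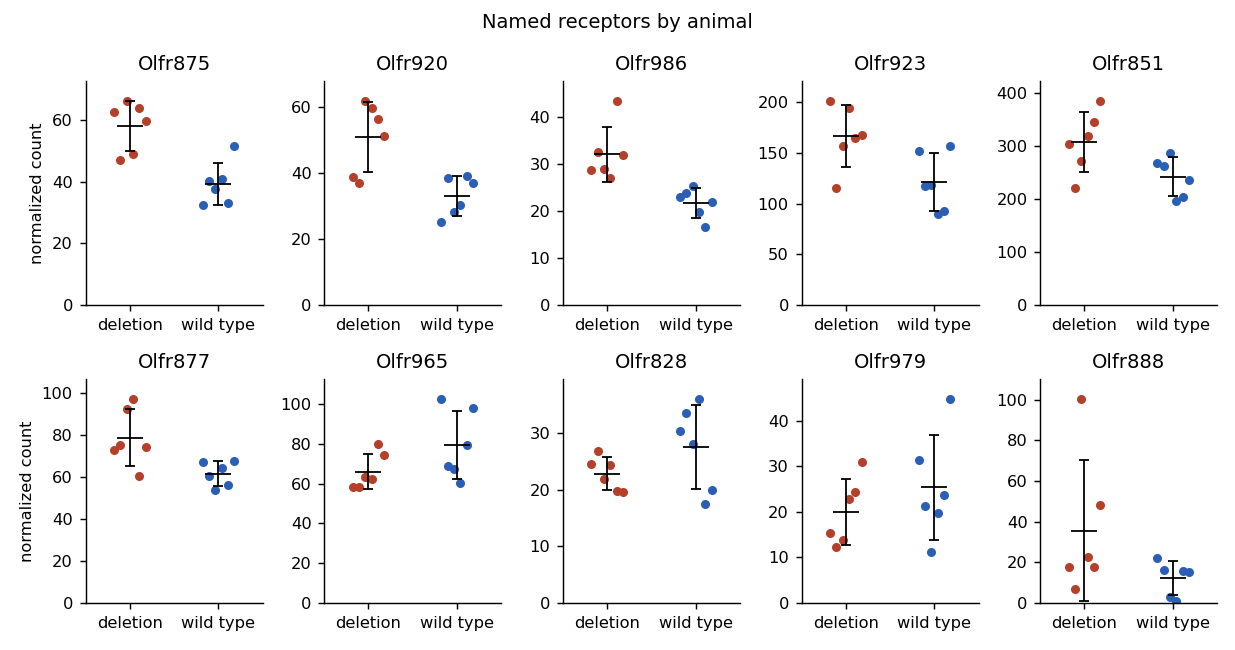
Normalized count of 10 members in each deletion animal (left) and wild-type animal (right), with the mean and SD of 6 animals as a bar; each axis starts at 0. Olfr986 alone shows no overlap, and Olfr888 has 1 deletion animal at 100.

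The members with the highest levels gave intervals that show how large a difference these data leave room for. Olfr835 averaged 280 ± 75.7 in deletion animals and 250 ± 41.9 in wild-type animals, with a 95% interval of the log2 fold change from -0.21 to 0.48. Olfr868 averaged 400 ± 89.7 in deletion and 358 ± 51.2 in wild-type animals, with an interval from -0.19 to 0.45. Olfr884 averaged 244 ± 56.9 in deletion and 230 ± 65.6 in wild-type animals, from -0.37 to 0.55. Olfr957 averaged 94.2 ± 16.0 in deletion and 79.7 ± 21.4 in wild-type animals, from -0.09 to 0.61. All 4 intervals include 0, whereas those of Olfr972 (0.04 to 0.60) and Olfr959 (0.004 to 0.62) lie above 0. The intervals are not adjusted for the number of genes tested. Olfr972 had 130, 137, 151, 149, 200 and 207 in deletion animals and 147, 158, 125, 126, 117 and 101 in wild-type animals. Deletion animals 5 and 6 stood above the rest (0.32 ± 0.13; limma unadjusted p = 0.0257, adjusted p = 0.955). Olfr959 averaged 336 ± 56.0 in deletion animals and 272 ± 61.9 in wild-type animals (0.31 ± 0.14; limma unadjusted p = 0.0472, adjusted p = 0.955).

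Animals of a genotype differed from each other by about as much in both groups. The coefficient of variation of tested members had a median of 0.233 in deletion animals and 0.227 in wild-type animals. Among the more abundant members, Olfr969 and Olfr984 varied least between wild-type animals, with coefficients of 0.0872 and 0.0930. Olfr984 averaged 148 ± 15.5 in deletion animals and 130 ± 12.1 in wild-type animals (0.18 ± 0.10). Olfr847 and Olfr921 varied most, with 0.394 and 0.309. Olfr847 had 80.0, 58.4, 82.4, 85.9, 101 and 108 in deletion animals and 93.1, 72.0, 40.3, 32.6, 61.1 and 93.3 in wild-type animals, so wild-type animals 3 and 4 were low. Olfr921 averaged 151 ± 35.1 in deletion and 160 ± 49.4 in wild-type animals, with wild-type animals 4 and 5 low at 101 and 106.

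Olfr888 (chr9:38108128-38111381) had the largest fold change of the members and was named after its values were seen. It had 17.4, 6.73, 100, 22.7, 17.8 and 48.2 normalized counts in deletion animals, against 21.98, 16.4, 2.81, 1.16, 15.5 and 15.2 in wild-type animals. Deletion animal 3 stood far above the rest and wild-type animals 3 and 4 were near 0. The means were 35.5 ± 34.6 in deletion animals and 12.2 ± 8.28 in wild-type animals. The log2 fold change of 1.42 had a 95% interval from -0.15 to 2.98 and a limma adjusted p of 0.955. It was 1.02 ± 0.65 (SE) without deletion animal 3 and 1.37 ± 0.67 without deletion animals 2 and 3, alternatives chosen after the data were seen. All the other 86 tested members had fold changes under 1 on the log2 scale in either direction. The lowest tested members, Olfr945 and Olfr871, averaged 13.8 ± 4.13 and 14.2 ± 4.58 in deletion animals and 11.04 ± 1.54 and 10.2 ± 5.38 in wild-type animals.

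Close relatives often differed in level, but other pairs of members were not compared in this way. Some models in close pairs, such as those of Olfr850 and Olfr885, hold the coding sequence alone. The part of the models in these differences was not tested. The 20 closest pairs of members, of 33 genes, each had at least 90% coding identity. In 10 of the 20 pairs the levels per kb differed by more than 2-fold, with a median of 1.92-fold. The same member was higher in 12 of 12 animals in 13 of the 20 pairs. Olfr870 had 25.9 per kb and its relative Olfr871 10.7 per kb. Olfr969, the highest member, and Olfr970, with 92.4% identity, had 256 and 38.4 per kb. Olfr924 had 40.2 per kb, whereas Olfr926 had 1 read in each of deletion libraries 2 and 5 and no other read. Olfr952 also had 1 read in each of those libraries, and Olfr955 had 10.7 per kb. The sources used here do not give how reads shared between such copies were assigned, so the levels of close pairs are uncertain. Exons of Olfr916 overlap Gm49385 on the same strand, and those of Olfr860 and Olfr943 overlap a gene on the opposite strand.

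Since no member passed the adjusted threshold, the fold changes are given by cluster as a description only. In the cluster at lower coordinates 23 members were tested, 20 were positive and the median log2 fold change was 0.14, with 2 higher at an unadjusted p. In the cluster at higher coordinates 64 were tested, 59 were positive and the median was 0.21, with 12 higher. The difference between the clusters was not tested. Another 22 receptor genes of these clusters carry numbers outside the range, with pseudogene symbols left out. Of them 20 were tested, 18 were positive and 4 were higher at an unadjusted p, with a median of 0.27.

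**Figure D4:**
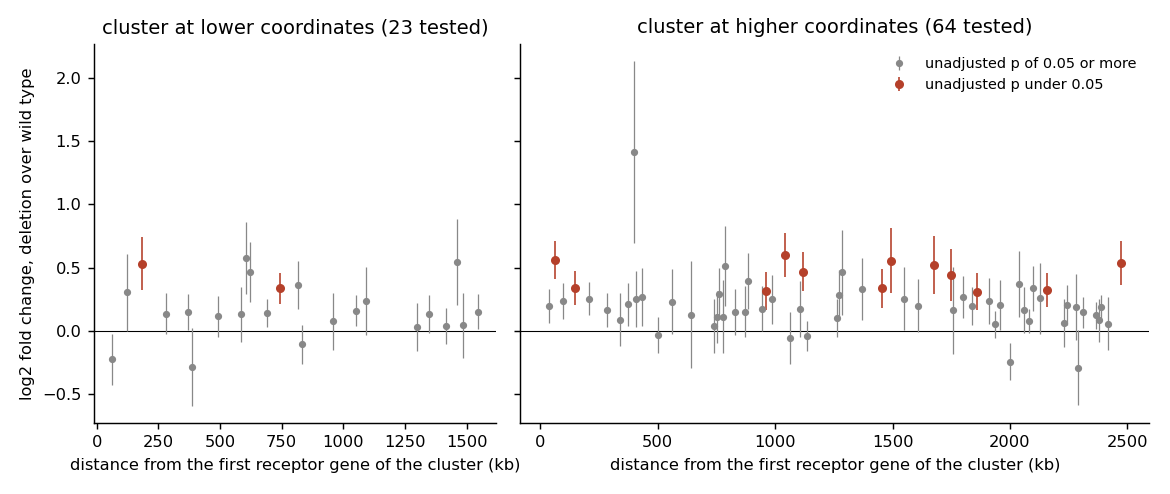
Log2 fold change, deletion over wild type, with its SE for 87 tested members, against distance in kb from the first receptor gene of each cluster. Red points have an unadjusted p under 0.05: 2 of 23 in the cluster at lower coordinates and 12 of 64 in that at higher coordinates, all positive.

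Summed over the 99 members, the CPM values (reads scaled to trimmed-mean library sizes) were 558, 429, 570, 604, 606 and 633 in deletion animals, against 517, 548, 474, 420, 451 and 554 in wild-type animals. Of the deletion animals 5 lay above every wild-type animal, and animal 2 lay near the lowest of them. The means were 567 ± 72.6 in deletion animals and 494 ± 54.6 in wild-type animals (SD, n = 6 each), 14.8% more in deletion animals. The excess ran from 11.4% (without wild-type animal 4) to 20.3% (without deletion animal 2) when single animals were left out. It was 21.6% without deletion animals 2 and 3, and 20.6% without deletion animals 2 to 5. The cluster at lower coordinates held 182 ± 31.4 CPM in deletion and 161 ± 19.7 CPM in wild-type animals, and that at higher coordinates held 385 ± 46.6 CPM in deletion and 333 ± 43.2 CPM in wild-type animals. No p is given for these sums.

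Other class II receptors, pseudogene symbols included, summed to 6173 ± 587 CPM in deletion animals and 5524 ± 626 CPM in wild-type animals, 11.8% more. The members therefore took nearly the same part of class II reads in both groups, 8.40% ± 0.553 in deletion animals and 8.24% ± 0.774 in wild-type animals. By animal the share was 9.08%, 7.43%, 8.36%, 8.67%, 8.25% and 8.59% in deletion animals and 8.003%, 8.05%, 7.35%, 7.73%, 8.80% and 9.48% in wild-type animals. The difference of 0.158 percentage points was under the SD of either group. It was 0.409 without deletion animals 2 and 3, 0.598 without deletion animals 2 to 5, 0.407 without wild-type animal 6 and -0.0189 without wild-type animal 3.

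**Figure D5:**
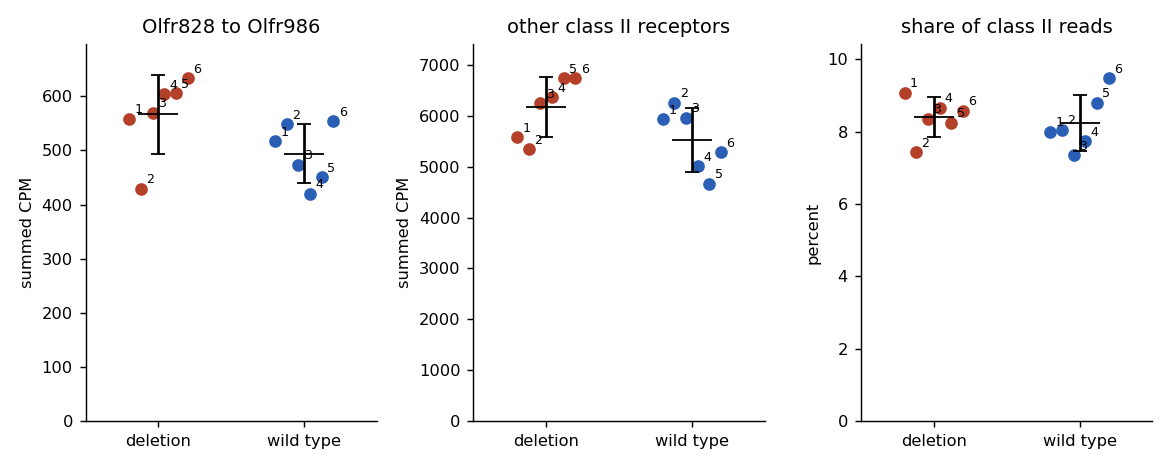
Summed CPM of the 99 members, summed CPM of the other class II receptors and the members' share of class II reads (percent), by animal, with deletion left of wild type, numbers naming the animals and bars for the mean and SD of 6. Deletion animal 2 has the lowest summed CPM of its group, 429, and the shares overlap, with means of 8.40% in deletion and 8.24% in wild-type animals.

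Genes that receptor expression depends on gave no called difference. Of 19 listed regulators of receptor choice (among them Lhx2, Ldb1 and Ebf1), 0 were higher and 0 lower by limma's adjusted p at a threshold of 0.05, and 0 fell under 0.05 before adjustment; 10 of 19 were positive, with a median log2 fold change of 0.01. The smallest p values were those of Ebf4, Atf5 and Ebf3, with fold changes of -0.17 ± 0.09, -0.10 ± 0.07 and 0.08 ± 0.07 (SE). Ebf4 and Ebf3 are Ebf transcription factors, and Atf5 is the factor of the unfolded protein response that receptor feedback uses. Of 16 tested genes of mature neurons and odor transduction 0 passed in either direction and 4 were positive, with a median of -0.04. Omp, the marker of mature neurons, averaged 56675 ± 7738 in deletion animals and 60163 ± 9286 in wild-type animals. The smallest p values of this list were those of Gng13 (-0.38 ± 0.22), Pde1c (0.08 ± 0.07) and Cngb1 (-0.06 ± 0.07). The mature neuron genes summed to 11341 to 14268 CPM in deletion animals and 11289 to 14593 CPM in wild-type animals.

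Markers of other cells were measured beside the shift of the receptors, and their part in it was not tested. None of the lists had a gene at 0 in all libraries, and none had a gene past the adjusted threshold in limma. Precursor (globose basal) markers were positive for 7 of 7, with a median of 0.15 and summed levels of 292 to 339 CPM in deletion animals and 250 to 319 CPM in wild-type animals, and Neurod1 (0.23 ± 0.10), Top2a (0.15 ± 0.07) and Kit (0.15 ± 0.08) had the smallest p. Immature neuron markers were positive for 5 of 8 (median 0.02), with 2243 to 2489 CPM in deletion animals and 2204 to 2345 CPM in wild-type animals. Dpysl3, an immature neuron gene, had 8278 ± 621 in deletion animals and 6863 ± 281 in wild-type animals (limma adjusted p = 0.0694). Sustentacular (supporting cell) markers were positive for 1 of 7 (median -0.14), with 6181 to 7207 CPM in deletion animals and 6451 to 8202 CPM in wild-type animals, and Cyp1a2 (-0.21 ± 0.08) had the smallest p.

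The zone markers, which mark dorsal and ventral mucosa, were positive for 2 of 5 (median -0.07), with 1447 to 1762 CPM in deletion animals and 1501 to 1725 CPM in wild-type animals. This list pools genes of both zones, so its count, median and sum describe neither zone alone. Acsm4, a dorsal gene, had the smallest p of them (-0.18 ± 0.09). The others were Nqo1 (-0.08 ± 0.10), Robo2 (-0.07 ± 0.06), Nrp2 (0.01 ± 0.06) and Ncam2 (0.10 ± 0.10). Horizontal basal markers were positive for 0 of 3 (median -0.19), with 81.1 to 103 CPM in deletion animals and 86.7 to 107 CPM in wild-type animals. Respiratory ciliated markers were positive for 2 of 4 (median 0.00), with 441 to 516 CPM in deletion animals and 421 to 526 CPM in wild-type animals. Immune markers were positive for 2 of 4 (median 0.01), with 108 to 147 CPM in deletion animals and 115 to 140 CPM in wild-type animals, and Cd74 had the smallest p (-0.25 ± 0.09). Erythroid markers were positive for 5 of 5 (median 0.28), with 59.4 to 133 CPM in deletion animals and 37.6 to 129 CPM in wild-type animals, so their ranges overlapped widely.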

How the data were processed

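Total RNA of 12 olfactory mucosae was sequenced as ribodepleted, stranded libraries, per the labels' protocols. STAR 2.6.0, GRCm38.p6 and DESeq2 are named in the submitters' processing notes. The sources used here do not name what counted the reads. The deposited signal values are read counts that the authors divided by a size factor per library. All values (100%) were whole multiples of 1 read (tolerance 0.01 read), which gave reads and depth. The same deposited table holds the authors' log2 fold change (wild type over deletion), a Wald score that was not used, and p-values. Of its rows 39395 were complete and 1 was incomplete and left out.

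Genes were matched to GENCODE M21 for 39318 rows (99.8%). Class I receptors are those of the chromosome 7 cluster, and class II receptors are all others, with pseudogene symbols included. limma 3.58.1 (R 4.3.3, trend and robust moderation, group as the only term) tested log2(value + 1), which understates the change of low genes. The expression filter of edgeR 4.0.16 (minimum count 10, on recovered reads) left 17320 genes, over which two-sided p-values were Benjamini-Hochberg adjusted. edgeR, DESeq2 1.42.0 and other scalings, filters, pseudocounts and sets of libraries were alternatives. The fit was also run on simulated counts. The planted changes were larger than the members' median fold change, so detection of changes of that size was not tested. Depth sets the precision of low members, for which counting error is large.

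The members and the gene lists were chosen with earlier results of these data known. The rule for named genes took the 8 highest members per kb, up to 6 in each direction by smallest p, the 2 most and 2 least variable of the more abundant, the 3 closest pairs, up to 5 members off chromosome 9, up to 3 members with 0 reads throughout and the 2 lowest tested, and up to 3 genes of each list. No member was off chromosome 9 or had 0 reads throughout. Pairs were ranked by coding identity (global alignment) in place of protein identity, a choice made after the data were seen. Each animal is 1 replicate. Replicate numbers are shared by both groups, but nothing in the labels pairs the animals.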

Additional observations from a re-analysis of the deposited data

Results flagged for a closer look

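In 3 of 58 sets of 6 values, an animal lay far from the other 5 of its group, where chance gives about 2.9 of 58. The sets come from the same animals, and Olfr884 is part of the summed CPM. They are therefore not independent, and the count cannot be weighed against that figure. For Olfr884, deletion animal 2 had a normalized count of 135, against 249 to 290 in the other deletion animals. For Olfr986, deletion animal 5 had 43.2, against 27.0 to 32.5 in the other deletion animals. For the summed CPM of the members, deletion animal 2 had 429, against 558 to 633 in the other deletion animals. The gap to the nearest animal was 0.733, 0.657 and 0.632 of the whole range of the group in these sets, above the critical value of 0.625 for 6 animals.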

How the results depend on the processing

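No member passed the adjusted threshold under any alternative run, and the median log2 fold change was positive in each. At an unadjusted p, 14 members were higher, and this count was 3 when scaled to summed class II reads, 24 without deletion libraries 2 and 3, and 6 to 27 when single animals were left out (27 without deletion animal 2, 9, 6, 9 and 7 without deletion animals 3, 4, 5 and 6, and 9 and 8 without wild-type animals 3 and 5). The count lower was 1 under class II scaling and 0 to 1 with single animals left out (1 without wild-type animal 4). The median ran from 0.15 to 0.28 with single animals left out, and without a filter the median of all genes moved to 0.13.

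Of 27 named members 10 changed sign somewhere, and none was called in either direction. Class II scaling moves all genes down alike (their median went to -0.17), so members with a small positive value change sign by construction. Under it the log2 fold change was -0.0765 for Olfr969, -0.0186 for Olfr835, -0.0229 for Olfr868, -0.0657 for Olfr884 and -0.115 for Olfr870. Olfr924 was at 0.00978 under neuron scaling and 0.0660 without deletion libraries 2 and 3, where Olfr921 was at 0.102. Without deletion libraries 2 to 5, Olfr837 was at 0.0526, Olfr921 at 0.0699, Olfr870 at -0.151, Olfr955 at -0.0171 and Olfr945 at -0.117. With single animals left out, Olfr884 ran from -0.0136 to 0.251, Olfr924 from -0.108 to 0.0299, Olfr921 from -0.177 to 0.0530, Olfr870 from -0.0385 to 0.112 and Olfr955 from -0.00896 to 0.393. The cause of the other changes was not tested.

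With the replicate number as a block, 13 members were higher at an unadjusted p, 0 passed adjustment and the median was again 0.20. Same-numbered animals deviated with correlations of -0.243 to -0.00728 and 0 of 6 correlated best with its own number, so the numbers were not taken as pairs. Low counts left 12 members untested.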
